A study of Mus musculus with 16 samples.

Results

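The genes described here are 9 members of the JAK-STAT pathway: the transcription factor genes Stat2, Stat3, Stat4, Stat5a, Stat5b and Stat6, and the feedback inhibitor genes Socs1, Socs2 and Socs3. They were taken by gene symbol from the table of all 16 libraries, and all 9 were found among its 55487 genes. RNA sequencing measured expression in the right hippocampus of PBS-perfused female mice aged 40 weeks per the characteristics, or 9.5 months per the treatment text. TCKO mice carried both the PS19 tau transgene and the knockout of Ch25h, T mice carried the transgene with Ch25h intact, CKO mice carried the knockout alone, and WT mice carried neither. Each group had 4 libraries (replicates 2, 3, 4 and 5 of TCKO and T, and 1, 2, 4 and 5 of CKO and WT). The PS19 transgene is a 1N4R human MAPT with the P301S mutation, driven by the PrP promoter, and Ch25h encodes the enzyme that makes the oxysterol 25-hydroxycholesterol.

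In this pathway a cytokine or interferon joins its receptor chains, which brings together the Janus kinases bound to their tails. The kinases phosphorylate the receptor, STAT proteins dock there and are themselves phosphorylated, and paired STATs move to the nucleus and bind DNA. STAT2 joins IRF9 in the complex that answers type I interferon, STAT3 serves the interleukin-6 (gp130) and interleukin-10 families, STAT4 serves interleukin-12, STAT5A and STAT5B serve the receptors that use the common gamma or beta chain as well as growth hormone, and STAT6 serves interleukin-4 and interleukin-13. SOCS proteins are made in answer to the signal and act against it: SOCS1 and SOCS3 inhibit Janus kinases, SOCS3 while bound to gp130, and SOCS2 restrains growth hormone signalling. In the injured brain STAT3 is known for its part in astrocyte reactivity.

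Library totals ran from 15.06 to 34.35 M reads. Levels below are CPM, counts per M reads of the TMM-scaled library total, and changes are log2 fold changes ± SE with n = 4 libraries per group, from edgeR's quasi-likelihood test with Benjamini-Hochberg adjustment over 18565 genes and a threshold of 0.05. The 95% intervals given below are normal approximations from the SE, and they are narrower than the quasi-likelihood test implies. For example, Pias1 in TCKO against T had an interval of 0.02 to 0.43 with an unadjusted p of 0.0505 (edgeR). Calls rest on the adjusted p and not on these intervals. Nothing in the labels states that each replicate is a separate mouse, so p-values here reflect only the spread among libraries. Ch25h itself fitted the labels: it was read at 0, 0.0317, 0.0371 and 0 CPM in TCKO and at 0.0819, 0, 0 and 0.0367 CPM in CKO, against 9.55, 5.46, 4.93 and 4.15 CPM in T and 0.581, 0.741, 0.72 and 1.41 CPM in WT. Mapt averaged 986 ± 141 CPM in TCKO, 769 ± 96.2 CPM in T, 375 ± 10.7 CPM in CKO and 347 ± 14.5 CPM in WT (SD). T replicate 4 and WT replicate 1 stood apart through choroid plexus markers, with 7450 and 7190 summed CPM against at most 447 CPM in every other library, and calls of the genes named here that were lost without both libraries are given with the results.

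Start-site sequences are shown because STAT dimers bind short palindromes and the STAT2 complex binds a repeated GAAA element. The 3 windows were picked after the search, as those of a called STAT gene and of both SOCS genes with an entry, and all 3 hold a match. The windows are RefSeq's on GRCm38.p6 and run from 250 bases before to 50 bases after an annotated start site, written 5′ to 3′ on the gene's strand with motif matches in capitals. The motifs searched on both strands were TTC followed by GAA after 3 free bases, TTC followed by GAA after 4 free bases, and GAAA repeated after 2 free bases.

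Socs3 chr11:117969317-117969616 (minus strand): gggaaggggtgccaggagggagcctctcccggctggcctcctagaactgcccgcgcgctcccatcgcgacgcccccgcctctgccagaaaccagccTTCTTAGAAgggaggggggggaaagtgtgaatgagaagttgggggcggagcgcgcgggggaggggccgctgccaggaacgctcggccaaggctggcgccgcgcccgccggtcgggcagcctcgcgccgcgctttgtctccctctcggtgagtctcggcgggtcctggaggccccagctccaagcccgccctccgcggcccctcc
Stat2 chr10:128270248-128270547 (plus strand): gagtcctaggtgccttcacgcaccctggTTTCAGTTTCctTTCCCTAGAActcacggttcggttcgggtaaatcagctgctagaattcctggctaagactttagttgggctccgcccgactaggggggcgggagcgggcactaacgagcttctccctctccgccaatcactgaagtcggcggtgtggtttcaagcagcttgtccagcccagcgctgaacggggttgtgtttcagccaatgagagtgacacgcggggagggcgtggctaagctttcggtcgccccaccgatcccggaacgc
Socs1 chr16:10785487-10785786 (minus strand): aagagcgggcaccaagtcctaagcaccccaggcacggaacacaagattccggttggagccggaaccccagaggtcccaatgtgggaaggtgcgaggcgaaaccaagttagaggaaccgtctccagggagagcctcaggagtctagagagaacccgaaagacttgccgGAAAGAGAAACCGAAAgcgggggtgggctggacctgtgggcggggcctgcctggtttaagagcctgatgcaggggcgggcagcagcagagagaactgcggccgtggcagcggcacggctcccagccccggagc

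The start site of the Socs3 window lies 681 bases downstream of the gene start that GENCODE gives, so the whole window lies inside the Socs3 gene as placed below. It held TTCTTAGAA at -154, counted from the start site to the first base of the match. The Stat2 window held TTCCCTAGAA at -210 and, on the opposite strand, GAAACTGAAA at -222. The Socs1 window held GAAAGAGAAA at -83 and GAAACCGAAA at -77, which overlap. Among all 32851 promoter windows of this length, 8.3% held the TTC and GAA pair with 3 bases between, 6.95% held it with 4 bases between and 3.44% held the GAAA repeat. The table matched 8 of the 9 members, all but Socs2. No match to these letters lay in the windows of Stat3, Stat5a, Stat5b or Stat6, of which Stat3, Stat5a and Stat6 had larger called changes than Stat2, and 1 of the Stat4 windows held GAAAGTGAAA at -97. A match describes the letters of the window and not a bound site.

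The order of transcript levels among the members, compared per length as TPM, differed between T and WT. In T, Stat3 came first at 27 ± 3.54 TPM, before Socs2 at 15.9 ± 5.28, Stat2 at 8.63 ± 2.09, Socs3 at 7.31 ± 3.42, Stat6 at 6.97, Stat5b at 1.93, Stat5a at 1.37, Stat4 at 0.17 and Socs1 at 0.122 TPM. In WT, Socs2 came first at 20.9 ± 9.81 TPM and Stat3 second at 10.4 ± 2.05, before Stat2 at 4.3, Stat6 at 2.91, Stat5b at 1.37, Stat5a at 0.543, Socs3 at 0.303 ± 0.163, Stat4 at 0.204 and Socs1 at 0.073 TPM. In T the libraries of these neighbours in the order overlapped: Stat3 and Socs2, Stat2 and Socs3, Socs3 and Stat6, Stat5b and Stat5a, and Stat4 and Socs1. In WT those of Socs2 and Stat3, Stat6 and Stat5b, Stat5a and Socs3, Socs3 and Stat4, and Stat4 and Socs1 overlapped. TCKO and CKO had the WT order, except that Socs3 (1.21 ± 0.763 TPM) came before Stat5a (0.848 ± 0.327 TPM) in TCKO, where their libraries overlapped. Socs3 was thus among the 3 lowest members in WT and among the 4 highest in T.

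**Figure D1:**
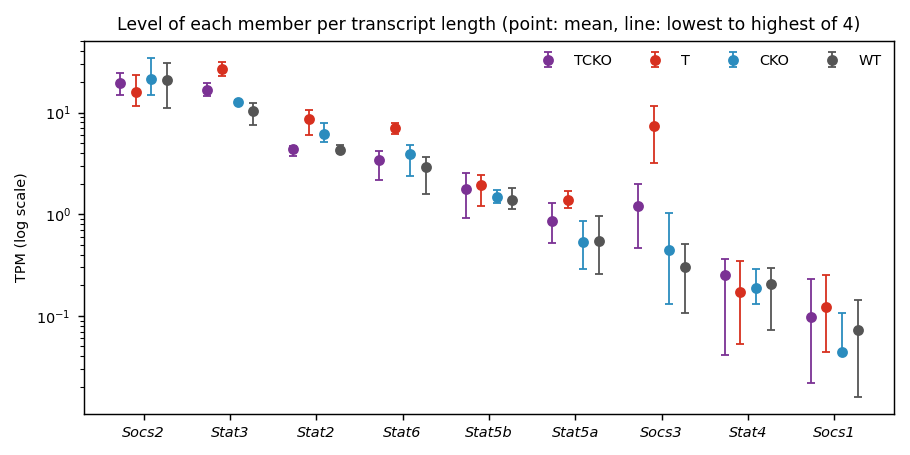
Level of each member per length (TPM, log axis) in TCKO, T, CKO and WT; points are means and lines run from the lowest to the highest of 4 libraries, drawn only where the value is above 0, so the Socs1 line of CKO has no lower part. Socs3 stands at 7.31 TPM in T and 0.303 TPM in WT, while Stat4 and Socs1 stay under 0.4 TPM in every library.

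With Ch25h intact, the tau transgene was accompanied by higher transcript levels of 4 of the 6 STAT genes and of Socs3. In T against WT, 5 of the 8 members that passed the filter on low counts were higher (Stat2, Stat3, Stat5a, Stat6 and Socs3) and none was lower, where 24.2% of all genes tested changed and 13% were higher. The median log2 fold change of the 8 was 1.07, against -0.01 over all genes tested. The libraries of T and WT did not overlap for any of the 5, as for 13.3% of all genes in this direction.

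Socs3, on chromosome 11 (117966079 to 117970047 on GRCm38), had the largest change of the 8 tested members in T against WT. It had 19.3, 11.4, 11.6 and 5.25 CPM in T, against 0.517, 0.475, 0.18 and 0.847 CPM in WT. The lowest T library lay above the highest WT library by several fold, and the WT values rest on 5 to 24 reads each. The log2 fold change was 4.54 ± 0.64, a 23.3-fold higher level (adjusted p = 7.84e-05, edgeR).

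Stat3, on chromosome 11 (100885098 to 100939540), had 91.1, 84, 80.9 and 67.5 CPM in T, against 22.1, 35.6, 32.7 and 27.6 CPM in WT. All 4 T libraries stood far above the WT libraries. It rose by 1.45 ± 0.14 on the log2 scale (adjusted p = 2.74e-06, edgeR), with the smallest p of the members.

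Stat2, on chromosome 10 (128270559 to 128292849), had 22.5, 27, 18.3 and 29.5 CPM in T, against 12.7, 12.8, 12.7 and 13.6 CPM in WT. The WT libraries were nearly level, and every T library was above them. The log2 fold change was 0.91 ± 0.15 (adjusted p = 0.000278, edgeR). Within T, Stat2 was highest in replicate 5, the library in which Stat3 and Socs3 were lowest.

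Stat6, on chromosome 10 (127642986 to 127660957), had 19.9, 17.1, 17.9 and 15.3 CPM in T, against 8.17, 8.96, 8.21 and 4.55 CPM in WT. The T libraries lay close together and above all WT libraries. Its log2 fold change was 1.23 ± 0.24 (adjusted p = 0.00161, edgeR). The gene overlaps Nab2 on the opposite strand, and the sources used here do not give whether counting used strand.

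Stat5a and Stat5b encode near-identical proteins and lie 8.6 kb apart on chromosome 11 (100859351 to 100885169 and 100780731 to 100850724), with Stat3 next to Stat5a and overlapping its end on the other strand. Stat5a had 4.65, 3.22, 4.03 and 3.15 CPM in T, against 0.775, 2.14, 1.91 and 0.706 CPM in WT, and rose by 1.44 ± 0.38 on the log2 scale (adjusted p = 0.0112, edgeR; 1.23 with adjusted p = 0.0633 without T replicate 4 and WT replicate 1). Stat5b had 9.17, 7.4, 7.39 and 4.46 CPM in T, against 4.04, 6.7, 4.93 and 4.55 CPM in WT. These groups overlap, and the log2 fold change of Stat5b was 0.49 ± 0.27 (95% interval -0.04 to 1.02, adjusted p = 0.207, edgeR). The deposited estimates of the 2 genes were not whole in 14 libraries each but summed to a whole number of reads in 16 of 16, so reads were divided between them, and the sum changed by 0.75 ± 0.26 in T against WT (adjusted p = 0.0469, edgeR). Stat5a took 33.7, 30.3, 35.3 and 41.6% of the summed reads in T, against 15.8, 24.2, 27.9 and 13.2% in WT.

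Stat4, Socs2 and Socs1 did not pass the test in T against WT. Stat4, on chromosome 1 (51987148 to 52107189), had 0.287, 0.696, 0.32 and 0.0937 CPM in T, against 0.581, 0.148, 0.396 and 0.247 CPM in WT, with a log2 fold change of 0.01 ± 0.63 whose 95% interval ran from -1.22 to 1.25. Socs1, on chromosome 16 (10782240 to 10785536), was below the filter, with 8, 2, 3 and 15 reads in T and 8, 1, 2 and 5 reads in WT. Tested without a filter, Socs1 had a log2 fold change of 0.76 ± 0.9 in T against WT (adjusted p = 0.672, edgeR over 34446 genes), so a change of the size seen for Stat2 was not detectable at this depth.

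Socs2, on chromosome 10 (95385362 to 95417180), had 15.4, 13.9, 15.2 and 21.3 CPM in T, against 32.8, 13.2, 13.3 and 33.2 CPM in WT. The WT libraries split into a high pair (replicates 1 and 5) and a low pair, and the log2 fold change was -0.49 ± 0.3 (95% interval -1.09 to 0.11, adjusted p = 0.267, edgeR). The highest CKO library, replicate 5 at 29 CPM, stood as high. In these 3 libraries, summed oligodendrocyte markers were 5280 CPM in CKO replicate 5, 4820 in WT replicate 1 and 3550 in WT replicate 5, against 8240 CPM or more in the other 13, and summed meninges and fibroblast markers were 224, 340 and 351 CPM, against at most 170. The part of this difference between libraries in the Socs2 values was not tested.

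**Figure D2:**
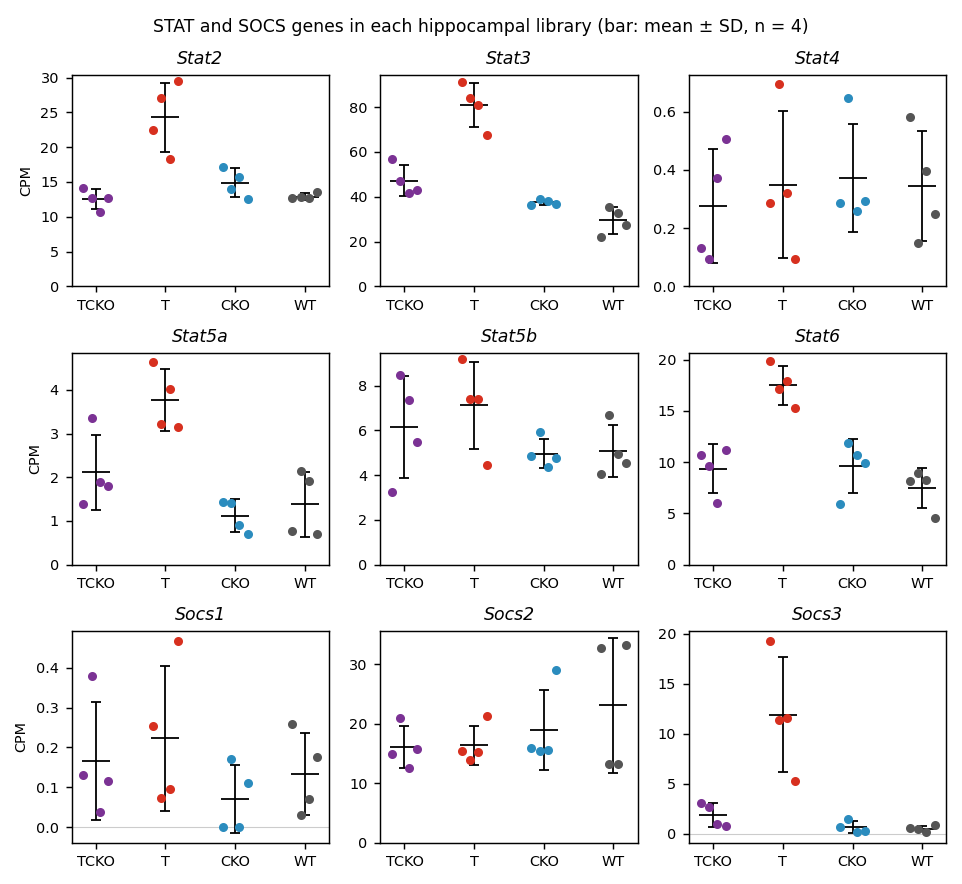
CPM of each member in every library of TCKO, T, CKO and WT; coloured points are libraries and black bars are mean ± SD (n = 4). The T libraries lie above all WT libraries for Stat2, Stat3, Stat5a, Stat6 and Socs3, and Socs2 splits WT into 2 high and 2 low libraries.

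Markers of several cell types were higher in T along with the members, while 13% of all genes were higher. In T against WT edgeR called higher 7 of 8 microglia, 4 of 8 astrocyte, 4 of 8 oligodendrocyte and 2 of 5 oligodendrocyte precursor markers (Vcan and Olig1). It also called higher 3 of 8 endothelium and pericyte, 8 of 9 T cell and NK cell, and 3 of 7 border macrophage and monocyte markers. Further, 1 of 4 neutrophil markers (S100a9) and 1 of 2 B cell markers (Igkc) were higher, and 1 of 6 inhibitory neuron markers (Sst) was lower. Summed CPM of 8 microglia markers ran from 1300 to 1680 in T and from 441 to 598 in WT, and that of 8 astrocyte markers from 6110 to 7310 in T and from 4880 to 5770 in WT. T cell and NK cell markers (10 genes) ran from 13.6 to 24 in T and from 2.72 to 3.59 in WT, border macrophage and monocyte markers (8 genes) from 14.3 to 40.9 in T and from 6.84 to 7.8 in WT, with Clec4e unread in WT. Oligodendrocyte markers (8 genes) ran from 10100 to 22000 in T and from 3550 to 15600 in WT, endothelium and pericyte markers (8 genes) from 153 to 214 in T and from 125 to 157 in WT, and neutrophil markers (7 genes) from 6.06 to 11.1 in T and from 4.33 to 7.59 in WT, with Ly6g unread in every library. The sums of excitatory neuron markers (6 genes), from 2080 to 3950 in T and from 3480 to 4960 in WT, overlapped. In bulk tissue, more or fewer cells of a type and more or less RNA per cell cannot be told apart. The part of these marker differences in the members' changes was not tested.

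With the transgene present, loss of Ch25h was accompanied by lower levels of Stat2, Stat3, Stat6 and Socs3. In TCKO against T, these 4 of the 8 tested members were lower and none was higher, where 12.9% of all genes changed and 8.05% were lower. The median log2 fold change of the 8 was -0.8, against 0.02 over all genes. The comparison shares the T libraries with T against WT, so the 2 sets of values are given side by side and are not independent.

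Socs3 had 3.08, 2.66, 1 and 0.741 CPM in TCKO, against 19.3, 11.4, 11.6 and 5.25 CPM in T. Every TCKO library was below every T library, as for 9.65% of all genes. Its log2 fold change was -2.66 ± 0.57, a level 0.158 times that of T (adjusted p = 0.00522, edgeR). Replicates 2, 3 and 4 of TCKO were above the WT range, which ended at 0.847 CPM, and the log2 fold change in TCKO against WT was 1.88 ± 0.61 (95% interval 0.68 to 3.08, adjusted p = 0.177, edgeR).

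Stat3 had 56.8, 47.1, 41.7 and 43.2 CPM in TCKO, against the 67.5 to 91.1 CPM of T. All TCKO libraries lay between the ranges of WT and T, and 3.14% of all genes had TCKO wholly above WT. The log2 fold change was -0.78 ± 0.14 in TCKO against T (adjusted p = 0.0012, edgeR) and 0.68 ± 0.14 in TCKO against WT (adjusted p = 0.049). The second call was narrow: it was lost when any of 13 of the 16 libraries was left out (all except TCKO replicate 4, T replicate 5 and WT replicate 2), with adjusted p from 0.0548 to 0.171, and at 0.199 without T replicate 4 and WT replicate 1 together. Stat3 was the only one of the 8 members called in TCKO against WT, where 0.302% of all genes were called and 0.183% were higher.

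Stat2 had 14.2, 12.7, 10.7 and 12.7 CPM in TCKO, against the 18.3 to 29.5 CPM of T. The TCKO libraries overlapped with the WT range of 12.7 to 13.6 CPM, and in TCKO against WT the log2 fold change was -0.04 ± 0.15 (95% interval -0.33 to 0.25). In TCKO against T it was -0.95 ± 0.15 (adjusted p = 0.000361, edgeR). TCKO lay above WT for Stat3 and overlapped with WT for Stat2, and this contrast between the 2 genes was not tested.

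Stat6 had 10.7, 9.57, 5.97 and 11.2 CPM in TCKO, against the 15.3 to 19.9 CPM of T. No TCKO library reached the T range. The log2 fold change was -0.91 ± 0.24 (adjusted p = 0.0196, edgeR), and without T replicate 2 it was -0.84 with adjusted p = 0.0666. Without T replicate 4 and WT replicate 1 the adjusted p was 0.0518.

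Stat5a had 1.39, 3.36, 1.89 and 1.79 CPM in TCKO, against 4.65, 3.22, 4.03 and 3.15 CPM in T. TCKO replicate 3 reached the T range, and the log2 fold change of -0.83 ± 0.37 (95% interval -1.56 to -0.1) did not pass the threshold (adjusted p = 0.156, edgeR). Stat5b had 3.25, 8.49, 7.34 and 5.46 CPM in TCKO, with a log2 fold change against T of -0.21 ± 0.27, and Socs2 had 14.9, 21, 12.5 and 15.7 CPM, with -0.03 ± 0.31. Stat4 had 0.13, 0.0951, 0.371 and 0.507 CPM in TCKO (-0.33 ± 0.64 against T), and Socs1 had 3, 12, 1 and 3 reads. T cell and NK cell markers summed to 1.56 to 4.56 CPM in TCKO and 13.6 to 24 CPM in T, while Stat4, known from T and NK cells, was not called. Of the other sums given above for T, microglia (550 to 966 CPM) and astrocyte markers (4650 to 5970 CPM) were lower in TCKO, without overlap. Border macrophage and monocyte markers were also below T, at 4.71 to 6.15 CPM with Clec4e unread. Sums that overlapped with T were those of oligodendrocyte (13400 to 17700 CPM) and endothelium and pericyte markers (122 to 157 CPM). Neutrophil (9.06 to 11.9 CPM) and excitatory neuron markers (3820 to 5590 CPM) overlapped with T as well. The part of these marker differences in the members' lower levels was not tested.

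**Figure D3:**
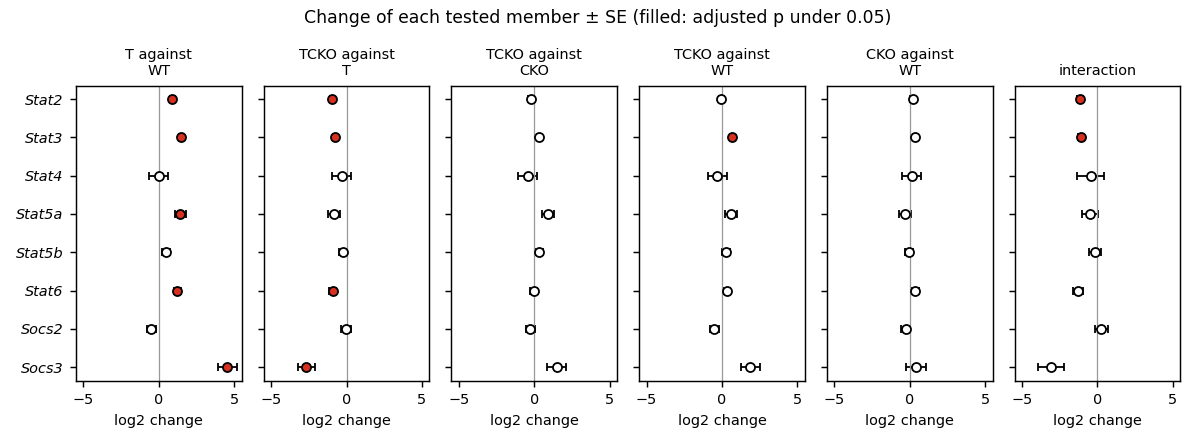
Log2 fold change of each tested member in 5 comparisons of 2 genotypes and in the interaction, one panel each; lines are ± SE and filled points passed the threshold of 0.05. Stat2, Stat3, Stat6 and Socs3 are higher in T against WT and lower in TCKO against T, Stat5a is called in T against WT and not in TCKO against T, and no member is called in CKO against WT or TCKO against CKO.

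Without the transgene, loss of Ch25h was accompanied by no called change in the members. In CKO against WT, edgeR called 0 of 8 members, as did DESeq2 and limma voom, with 1 (Stat3) at an unadjusted p under 0.05, where 0.0108% of all genes were called. Stat3 had 36.5, 39.2, 37.9 and 36.6 CPM in CKO, against 22.1, 35.6, 32.7 and 27.6 CPM in WT. The groups did not overlap, with all of CKO higher, as for 4.88% of all genes, but the log2 fold change was 0.35 ± 0.14 (adjusted p = 0.382, edgeR). Socs3 had 0.655, 1.51, 0.195 and 0.257 CPM in CKO, against 0.18 to 0.847 CPM in WT, and its log2 fold change of 0.4 ± 0.65 was -0.4 without CKO replicate 2. Stat2 had 17.2, 14, 15.7 and 12.5 CPM (log2 fold change 0.2 ± 0.15) and Stat6 had 5.9, 11.9, 10.7 and 9.92 CPM (0.36 ± 0.24) in CKO. Stat5a had 1.43, 1.42, 0.911 and 0.698 CPM (-0.31 ± 0.39), Stat5b had 4.83, 5.91, 4.36 and 4.74 CPM (-0.03 ± 0.27), and Socs2 had 16, 15.4, 15.6 and 29 CPM (-0.28 ± 0.3) in CKO. Stat4 had 0.287, 0.647, 0.26 and 0.294 CPM (0.13 ± 0.64), and Socs1 had 0, 4, 0 and 3 reads.

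On the Ch25h knockout background, the transgene was accompanied by no called change in the members either. In TCKO against CKO, edgeR called 0 of 8, as did DESeq2 and limma voom, with 3 at an unadjusted p under 0.05 (Stat3, Stat5a and Socs3), where 0.539% of all genes were called. The TCKO libraries of Stat3 (41.7 to 56.8 CPM) lay above those of CKO (36.5 to 39.2 CPM), as for 5.32% of all genes, with a log2 fold change of 0.33 ± 0.14 (adjusted p = 0.226). That of Socs3 was 1.48 ± 0.61 (95% interval 0.29 to 2.68, adjusted p = 0.221), and that of Stat5a was 0.92 ± 0.39 (adjusted p = 0.235, edgeR). Stat2 was at -0.24 ± 0.15, with a 95% interval from -0.53 to 0.05.

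Whether the transgene's difference itself depended on Ch25h was tested as the interaction, the log2 fold change in TCKO against CKO minus that in T against WT. Stat2 (-1.15 ± 0.21, adjusted p = 0.00658) and Stat3 (-1.12 ± 0.19, adjusted p = 0.00589, edgeR) were called, 2 of 8 members where 3.15% of all genes were called and 2.45% were lower. Stat6 (-1.27 ± 0.34, adjusted p = 0.0532) and Socs3 (-3.06 ± 0.86, adjusted p = 0.0627, edgeR) had larger differences and larger errors and missed the threshold. Without T replicate 5 both were called, Stat6 at -1.33 (adjusted p = 0.0383) and Socs3 at -3.31 (adjusted p = 0.0292), and without CKO replicate 1 Stat6 was at -1.46 (adjusted p = 0.0238). With the replicate number as a block, Socs3 was at -2.91 (adjusted p = 0.045). Of 24 alternatives, 18 left Stat6 and 20 left Socs3 uncalled, with adjusted p up to 0.115 and 0.191 (edgeR). With each library left out, Stat6 ran from -1.46 to -1.09 and Socs3 from -3.41 to -2.26. Stat5a (-0.52 ± 0.54), Stat5b (-0.18 ± 0.38), Stat4 (-0.46 ± 0.9) and Socs2 (0.25 ± 0.43) did not pass.

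Ratios of paired members in the same library were used to compare the size of change of 2 members. The log2 ratio of Socs3 to Stat3, the inhibitor and the factor that induces it, averaged -2.89 ± 0.59 in T and -5.72 ± 0.89 in WT (SD, n = 4 each; difference 2.83, exact two-sided permutation p = 0.0286, adjusted p = 0.0857 over 12 tests). In TCKO the ratio averaged -4.8 ± 0.79, lower than in T by a difference of -1.91 (exact permutation p = 0.0286, adjusted 0.0857, n = 4 each). In these comparisons no library of 1 group overlapped with the other, and 0.0286 is the smallest p that 4 against 4 can give. The log2 ratio of Stat5b to Stat5a averaged 0.87 ± 0.29 in T and 1.93 ± 0.56 in WT (difference -1.05, exact permutation p = 0.0286, adjusted 0.0857, n = 4 each). That of Stat2 to Stat3 averaged -1.9 ± 0.1 in TCKO and -1.34 ± 0.21 in CKO (difference -0.56, exact permutation p = 0.0286, adjusted 0.0857, n = 4 each), and -1.74 ± 0.43 in T and -1.16 ± 0.31 in WT (difference -0.58, exact permutation p = 0.114, n = 4 each). No ratio passed the adjusted threshold. With 0.0286 as the smallest p, most of the 12 tests would have had to reach it for any ratio to pass. The adjusted result therefore cannot decide whether 2 members differed in the size of their change.

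**Figure D4:**
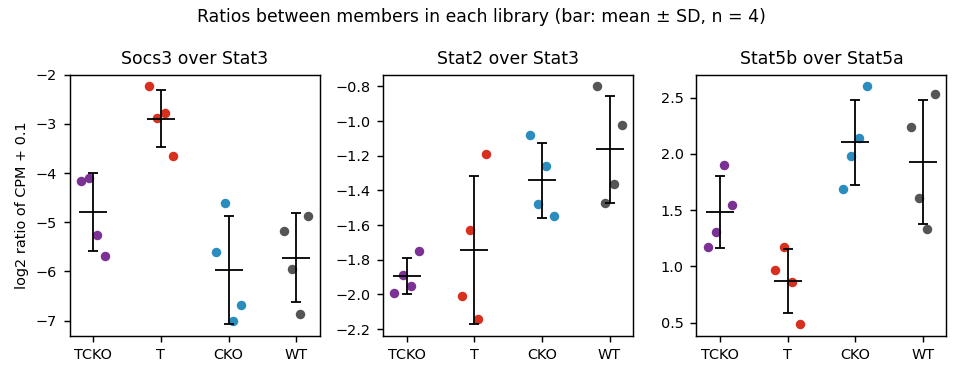
Log2 ratio of Socs3 to Stat3, Stat2 to Stat3 and Stat5b to Stat5a (CPM + 0.1) in every library of TCKO, T, CKO and WT, with black bars for mean ± SD (n = 4). The Socs3 to Stat3 ratio lies between -3.66 and -2.24 in T, above all libraries of the other groups.

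Other parts of the pathway were described by lists of its components and of genes reported downstream of it. The lists were chosen with earlier results of these data known, so the shares of all genes beside their counts describe and do not test. Of the 86 genes tested, 47 were higher and 4 lower in T against WT, and 39 were lower and 2 higher in TCKO against T. Over all genes, 13% were higher in T against WT and 8.05% were lower in TCKO against T. With the replicate block, 39 were higher and 3 lower in T against WT. The calls lost were Lif, Il6ra, Cntfr, Il2rb, Il15ra, Pias4, Pias1, Junb and Id1, with adjusted p from 0.05 to 0.143. Without T replicate 4 and WT replicate 1, 39 were higher and 1 lower in T against WT and 33 were lower in TCKO against T. The calls lost then were Pias1, Pias4, Lif, Il6ra, Lifr, Il11ra1, Il2rb, Il15ra, Junb, Pim2 and Id1 in T against WT, and Clcf1, Il13ra1, Il13ra2, Bcl3, Mcl1, Pim2 and Id1 in TCKO against T. The genes in both of these lists of lost calls were named after their values were seen. Of the 4 Janus kinase genes, only Jak3, which pairs with the common gamma chain and is best known from blood cells, passed in T against WT (2 passed without TCKO replicate 4, and 2 higher and 1 lower without T replicate 5). It averaged 3.65 ± 0.399 CPM in T and 0.946 ± 0.377 CPM in WT, a log2 fold change of 1.94 ± 0.31 (adjusted p = 0.000254, edgeR), and 1.75 ± 0.592 CPM in TCKO. Jak1 (-0.2 ± 0.1), Jak2 (0.56 ± 0.23) and Tyk2 (0.04 ± 0.18) did not pass. Of the 5 other CIS and SOCS genes, Socs6 was higher (0.48 ± 0.13) and Socs7 lower (-0.39 ± 0.09) in T against WT, and Socs7 was higher in TCKO against T (0.43 ± 0.09, adjusted p = 0.00659, edgeR; 0.066 when only the TCKO and T libraries were fitted). Cish, a STAT5 target in blood cells, averaged 5 ± 2.1 CPM in T and 3.58 ± 1.25 CPM in WT and did not pass. Among the SOCS genes tested, Socs3 was the one with a change of several fold.

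Ligands of the gp130 family, which signal to STAT3, were higher in T for 5 of 7 tested genes (3 without T replicate 2), and 3 of the 7 were lower in TCKO against T, against the 13% and 8.05% of all genes. Cntf, ciliary neurotrophic factor, averaged 3.37 ± 1.71 CPM in TCKO, 25 ± 10.7 CPM in T and 1.76 ± 0.727 CPM in WT, with log2 fold changes of 3.82 ± 0.45 in T against WT and -2.89 ± 0.43 in TCKO against T. Il6 itself was below the filter, as were Ctf1 and Il27. Of 11 receptors for gp130 and other STAT3 cytokines, 8 were higher and 1 lower in T against WT (6 higher and 1 lower with the replicate block), and 6 were lower in TCKO against T. Osmr, the oncostatin M receptor, averaged 8.51 ± 7.42 CPM in TCKO, 67.6 ± 14.1 CPM in T and 4.56 ± 1.01 CPM in WT (3.89 ± 0.47 in T against WT, adjusted p = 1.85e-05, and -2.99 ± 0.45 in TCKO against T, adjusted p = 0.00031, edgeR). Il6st, which encodes gp130, rose by 0.79 ± 0.16 in T against WT, whereas the leukaemia inhibitory factor receptor Lifr was lower (-0.73 ± 0.19). The Lifr call was lost without T replicate 3 and without T replicate 4 and WT replicate 1 together, with adjusted p up to 0.0919. Both Il6st and Lifr were named after their values were seen.

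Genes reported elsewhere as STAT3 targets were higher in T against WT in 12 of 15 and lower in TCKO against T in 10 of 15, against 13% and 8.05% of all genes. Without T replicate 2, or without T replicate 3, 6 of 15 were called, as Bcl3, Pim1, Myc and Mcl1 lost their calls. Gfap, the astrocyte intermediate filament, averaged 1640 ± 1040 CPM in TCKO, 6530 ± 1380 CPM in T and 643 ± 172 CPM in WT, and its log2 fold changes were 3.35 ± 0.34 in T against WT and -1.99 ± 0.33 in TCKO against T. Lcn2, lipocalin 2, a secreted iron-binding protein, averaged 1.01 ± 1.4 CPM in TCKO, 19.1 ± 11 CPM in T and 0.194 ± 0.133 CPM in WT. Serpina3n, a serine protease inhibitor, had log2 fold changes of 2.84 ± 0.29 (T against WT) and -1.92 ± 0.28 (TCKO against T). The list holds genes of astrocytes, microglia and other cells, and its counts say nothing of which factor acts on them.

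Around STAT2, the list of interferon receptors with Irf9 had 3 of 5 genes higher in T against WT and 3 lower in TCKO against T. Over all genes, these shares were 13% and 8.05%. In both cases the 3 genes were Irf9, Ifngr1 and Ifnar2. Irf9, the DNA-binding partner of STAT2, averaged 12.8 ± 4.64 CPM in TCKO, 51.7 ± 7.73 CPM in T and 9.89 ± 2.76 CPM in WT, with log2 fold changes of 2.38 ± 0.3 in T against WT (adjusted p = 3.23e-05) and -2.02 ± 0.3 in TCKO against T (adjusted p = 0.000276, edgeR). Usp18, which restrains the type I interferon receptor, averaged 5.93 ± 2.69 CPM in TCKO, 71.2 ± 21.3 CPM in T and 8.53 ± 4.95 CPM in WT. It is 1 of 13 other inhibitors of the pathway. Of all genes, 24.2% were called in T against WT and 12.9% in TCKO against T, in either direction. Of the 13 inhibitors, 4 were higher and 1 lower in T against WT (0 lower without T replicate 2) and 3 were lower in TCKO against T. Ptpn6, the phosphatase SHP-1 of blood and microglial cells, was another, at 2.63 ± 0.29 in T against WT and -1.87 ± 0.28 in TCKO against T.

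Receptors upstream of STAT5 were higher in T against WT in 7 of 11 (5 with the replicate block, and 5 without T replicate 4 and WT replicate 1) and lower in TCKO against T in 6 of 11, against 13% and 8.05% of all genes. Csf2ra, the alpha chain for GM-CSF, averaged 5.03 ± 0.863 CPM in TCKO, 16.6 ± 3.33 CPM in T and 2.54 ± 0.286 CPM in WT, with log2 fold changes of 2.7 ± 0.18 and -1.72 ± 0.17. Il2rg, the common gamma chain, had log2 fold changes of 2.79 ± 0.25 (T against WT) and -1.86 ± 0.24 (TCKO against T). Of 7 tested genes reported as STAT5 targets, 5 were higher (3 without T replicate 2) and 1 was lower in T against WT. The lower one, Pim2, lost its call when any of 10 libraries was left out: TCKO replicates 3 and 4, T replicates 2, 3 and 4, CKO replicates 1 and 4, and WT replicates 1, 2 and 5 (adjusted p up to 0.149 over all alternatives). Igf1, insulin-like growth factor 1, averaged 10.2 ± 1.8 CPM in TCKO, 28.1 ± 6.65 CPM in T and 10.6 ± 1.45 CPM in WT. In TCKO against T, 4 of these 7 were lower, and 2 without TCKO replicate 2, where Bcl2 and Id1 lost their calls. Pim2 was higher, a call lost without TCKO replicate 3 or 5, T replicate 2, 3 or 4, or T replicate 4 and WT replicate 1 together (adjusted p up to 0.106).

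For STAT6, the receptor chains Il4ra and Il13ra1 were higher in T against WT, 2 of 3, where 13% of all genes were. All 3 were lower in TCKO against T (1 without TCKO replicate 5), where 8.05% of all genes were. Il4ra averaged 4.43 ± 1.95 CPM in TCKO, 11.5 ± 2.71 CPM in T and 3.92 ± 1.18 CPM in WT, with log2 fold changes of 1.54 ± 0.33 and -1.37 ± 0.33. Il13ra1 was at -1.21 ± 0.31 in TCKO against T (adjusted p = 0.016, edgeR), a call lost without TCKO replicate 5, without T replicate 2, or without T replicate 4 and WT replicate 1 together, with adjusted p up to 0.0728 over all alternatives. Il13ra2, a decoy receptor, had 4 reads over the TCKO libraries and 69 over the T libraries, and its call was lost without any of the TCKO libraries, without T replicate 3, without T replicate 4, or without T replicate 4 and WT replicate 1 together, with adjusted p up to 0.156. Of 9 genes of alternative activation downstream of STAT6 in macrophages, 5 (Arg1, Chil3, Retnla, Ear2 and Pdcd1lg2) were below the filter. Of the 4 tested, edgeR, DESeq2 and limma voom called 0 in T against WT, with 0 at an unadjusted p under 0.05. In TCKO against T edgeR called 0 (1 with the replicate block), with 2 at an unadjusted p under 0.05, and DESeq2 and limma voom called 1 each. For STAT4, the receptor genes Il12rb1 (1.18 ± 0.67) and Il12rb2 (1.56 ± 0.9) did not pass in T against WT (adjusted p = 0.222 and 0.227, edgeR).

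**Figure D5:**
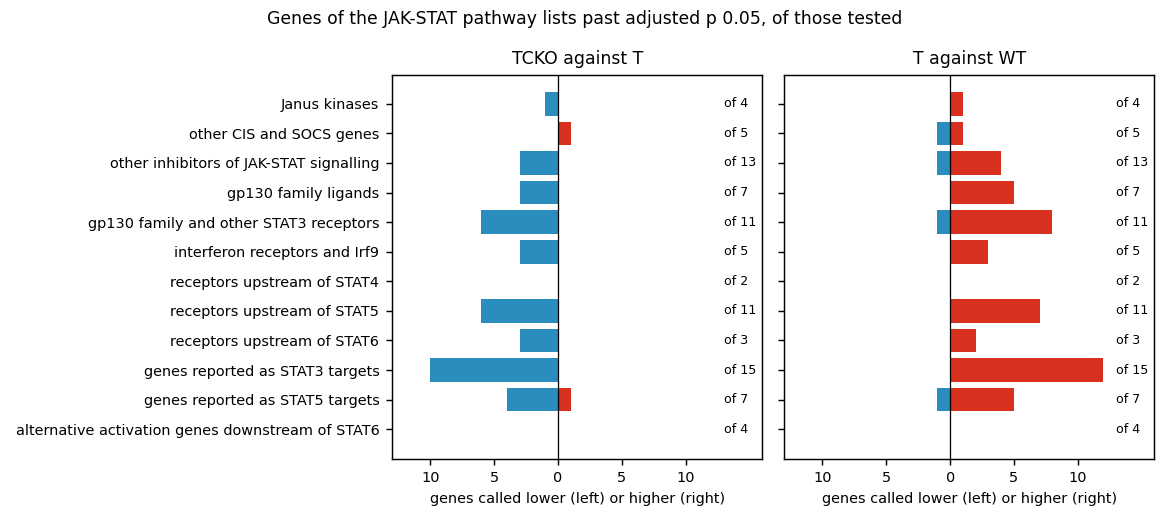
Number of genes of each pathway list called lower (blue, to the left) and higher (red, to the right) in TCKO against T and in T against WT, with the number tested at the right edge of each panel. Genes reported as STAT3 targets were called higher in 12 of 15 in T against WT and lower in 10 of 15 in TCKO against T.

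Without the transgene, none of these genes passed the test: in CKO against WT, edgeR called 0 of the 86, as did DESeq2 and limma voom, with 7 at an unadjusted p under 0.05. In TCKO against CKO edgeR called 1 of 86, Gfap (1.81 ± 0.32, adjusted p = 0.0248). DESeq2 called 8 and limma voom 1. Over all genes, edgeR called 0.0108% in CKO against WT, 0.539% in TCKO against CKO and 0.302% in TCKO against WT. The Gfap call was lost with the replicate block (adjusted p = 0.0879), without TCKO replicate 3 or without any one of the CKO libraries, with adjusted p up to 0.0953. In TCKO against WT edgeR called 1, Csf2ra (0.99 ± 0.18, adjusted p = 0.0259), DESeq2 8 and limma voom 0. The Csf2ra call was lost with the replicate block (adjusted p = 0.125), with only the compared libraries, without TCKO replicate 2, without WT replicate 1, 2 or 5, and without T replicate 4 and WT replicate 1 together, with adjusted p up to 0.134.

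The genes whose levels followed a member most closely were ranked by the root mean square difference of log2 CPM, relative to the WT mean, over the 16 libraries. The 13009 genes ranked were protein-coding with a mean of at least 1 CPM. Gene models, pseudogenes, ribosomal and mitochondrial genes and the members were left out. For Stat3 the closest genes were Pou2f2, Plekho1 and Elf1, each at 0.2. For Stat2 they were Wsb1 and Lxn at 0.23 and Scg3 at 0.24, for Stat6 Mtmr11 at 0.25, Mmp11 at 0.28 and Shc1 at 0.29, and for Stat5a Card19 and Dbndd2 at 0.31 and Wipf1 at 0.32. For Socs3 the closest were Tlr2 at 0.73, Lag3 at 0.77 and Glycam1 at 0.77. The measure is not scaled by the size of a gene's change or its spread. The larger values for Socs3, with its larger change and few WT reads, therefore do not show a looser likeness. Among the members, Stat3 and Stat6 were closest to each other at 0.38, and the nearest member to Socs3 was Stat3 at 1.72.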

How the data were processed

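Per the labels' protocols, library preparation used an oligo-dT kit (SMARTer Ultra Low). The submitters' processing notes list bcl2fastq, STAR 2.5.1a, Subread, featureCounts 1.4.6-p5 and build GRCm38, and give no role for any of them. The authors deposited estimated counts per gene (expected counts, not always whole numbers; 74.53% of those above 0 were whole) and, per the file headers, TPM with effective lengths. The quantifier and the use of strand are not given in the sources used here. Each of 55487 genes was kept once (287 repeated lines were dropped), and all 887792 values of the series table equalled the per-sample files within 0.01 reads.

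After rounding, counts went into edgeR 4.0.16 under R 4.3.3 (TMM, filterByExpr with a minimum count of 10, a mean per genotype over all 16 libraries, quasi-likelihood F-tests, Benjamini-Hochberg adjustment over 18565 genes, threshold 0.05), after the step was tested on simulated data. No minimum fold was set. Ratios used log2(CPM + 0.1) and exact permutation. TPM were only described. Alternatives were DESeq2 1.42.0, limma 3.58.1 voom, other scalings and filters, a fit of only the groups compared, the replicate block, Stat5a and Stat5b summed, and leaving out libraries. The deviations of same-numbered T and WT libraries from their group means correlated at r = 0.12, 0.14 and 0.3. Libraries with different numbers were not compared, so these values cannot decide whether the numbers mark pairs, which the labels do not state. In CKO against WT r was -0.05, 0.02, 0.17 and 0.27, and in TCKO against T it was -0.08, -0.14, -0.13 and 0.17. TCKO libraries gave -0.03, -0.02 and 0.04 with CKO and -0.05, 0.02 and 0.14 with WT. The main fit did not use the replicate numbers, and the block was an alternative in every comparison. Members and lists were chosen with earlier results of these data known. Of each list, up to 4 genes with the lowest p among those called could be named, and a part of them was picked as examples after their values were seen. Coordinates are from GENCODE M21.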

Additional observations from a re-analysis of the deposited data

Results flagged for a closer look

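In 3 of the 36 groups of 4 libraries of a member, 1 library stood far from the rest by Dixon's criterion, which chance meets in about 1 in 20 groups: Socs2 at 29 CPM in CKO replicate 5, Stat2 at 13.6 CPM in WT replicate 5 and Stat4 at 0.647 CPM in CKO replicate 2. The Stat2 gap is small, since the other WT libraries lay at 12.7 to 12.8 CPM.

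The transgene's log2 difference was smaller without Ch25h than with it, by the interaction test of edgeR, for Stat2 (-1.15, 95% interval -1.56 to -0.75) and Stat3 (-1.12, 95% interval -1.5 to -0.74), and these held when each library was left out. Of the 86 list genes tested, 16 were called lower in the interaction (6 to 22 with each library left out), where 2.45% of all genes were. Genes were named from the lists by their p in T against WT or TCKO against T. Those comparisons share libraries with the interaction, so this choice favours a call here, and not all 16 were named. The same was found for genes named from the lists. These were Csf2ra (-2.29), Csf2rb (-2.39), Il2rg (-2.29) and Il3ra (-2.53) among receptors, Osmr (-2.88), Il10rb (-0.89), Ifnar2 (-0.68) and Ifngr1 (-0.74) among further receptors, Ptpn6 (-1.55) and Usp18 (-2.97) among inhibitors, Ebi3 (-1.56) among ligands, and Serpina3n (-2.21), Igf1 (-1.76) and Cdkn1a (-1.85) among reported targets. The calls of Csf2ra, Csf2rb, Il2rg, Serpina3n and Igf1 held under every alternative run.

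The other calls were lost without some libraries. Those of Osmr, Il10rb, Cdkn1a, Ebi3, Ifnar2, Ptpn6, Il3ra and Ifngr1 were lost without T replicate 4 and WT replicate 1 together, the 2 libraries rich in choroid plexus markers. Of single libraries, Osmr lost its call without CKO replicate 5 (highest adjusted p over all alternatives 0.0592), Il10rb without TCKO replicate 5, T replicate 2, CKO replicate 1, CKO replicate 4 or WT replicate 5 (highest 0.0654), and Cdkn1a without T replicate 2, T replicate 3, CKO replicate 2 or CKO replicate 5 (highest 0.0723). Usp18 lost it without TCKO replicate 2 or 5, T replicate 2 or 3, CKO replicate 2 or 4, or WT replicate 4 or 5 (highest 0.0726), and Ebi3 without TCKO replicate 5, T replicate 2 or 3, CKO replicate 4 or 5, or WT replicate 2 or 5 (highest 0.0703). Ifnar2 lost it without TCKO replicate 2 or 5, T replicate 2 or 4, CKO replicate 2 or 5, or WT replicate 2 or 5 (highest 0.0766), and with the replicate block (0.0512). Ptpn6 lost it without TCKO replicate 3 or 5, T replicate 2, 3 or 4, any CKO library, or WT replicate 1, 2 or 5 (highest 0.104). Il3ra lost it without TCKO replicate 3, 4 or 5, T replicate 2, 3 or 4, CKO replicate 1, 2 or 5, or WT replicate 1, 4 or 5 (highest 0.106). Ifngr1, at an adjusted p of 0.0498, lost it without any library other than TCKO replicate 3 and T replicate 5 (highest 0.142) and with the replicate block (0.0512).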

How the results depend on the processing

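The 5 member calls in T against WT numbered 5 when each library was left out, and the 4 in TCKO against T numbered 3 to 4. Of 1194 member values under alternatives, 1138 kept direction and side of the threshold. This count includes uncalled members far from the threshold and fits that left out a library of a group not compared. It therefore does not measure how stable the calls are. The calls that moved with a setting, besides those given with the results, were Stat3 in TCKO against WT, lost with only the compared libraries (adjusted p = 0.17), with the replicate block (0.61, adjusted p = 0.125) and with limma voom (0.0626), Socs3 in TCKO against WT under DESeq2 (adjusted p = 0.046), and Stat6 and Socs3 in the interaction, called under DESeq2 (adjusted p = 0.00755 and 0.00575) and with no filter (0.0326 and 0.0295), with Stat6 also called under RLE scaling (0.0494) and a 1 CPM filter (0.0338). Pairing the replicate numbers as a block changed 4490 called genes to 3411 in T against WT, and changed no other member call. The members called in TCKO against WT numbered 0 with only the compared libraries, the block, voom or the choroid-rich libraries left out and 2 under DESeq2, and in the interaction 4 under DESeq2 or no filter.

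Uncalled values that changed sign were Stat4 in T against WT under voom (-0.12) and in TCKO against WT without the choroid-rich libraries (0.07), Stat6 in TCKO against CKO without them (0.00), and the Stat2 to Stat3 ratio in CKO against WT from TPM (0.17). With each library left out in turn, Stat4 ran from -0.52 to 0.4 in T against WT, -0.28 to 0.51 in CKO against WT, -0.79 to 0.21 in TCKO against T, -0.78 to 0.07 in TCKO against WT and -0.92 to 0.09 in the interaction. Stat5b ran from -0.12 to 0.14 in CKO against WT, -0.42 to 0.00 in TCKO against T and -0.4 to 0.03 in the interaction. Socs2 ran from -0.21 to 0.12 in TCKO against T and -0.39 to 0.05 in TCKO against CKO, Socs3 from -0.4 to 0.75 in CKO against WT, Stat6 from -0.2 to 0.13 in TCKO against CKO and Stat2 from -0.1 to 0.04 in TCKO against WT. The Stat2 to Stat3 ratio ran from -0.28 to 0.03 in TCKO against T, the Socs3 to Stat3 ratio from -0.71 to 0.09 and the Stat5b to Stat5a ratio from -0.02 to 0.38 in CKO against WT.

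Counts of called genes moved more. Without the choroid-rich libraries they were 2696 in T against WT, 8 in CKO against WT, 1591 in TCKO against T, 12 in TCKO against WT and 378 in the interaction. DESeq2 gave 109 in CKO against WT, 765 in TCKO against CKO, 459 in TCKO against WT and 1250 in the interaction. Voom gave 1, 59 and 25, only the compared libraries 1, 301 and 16, and the block 0, 5 and 3 in CKO against WT, TCKO against CKO and TCKO against WT. Only the compared libraries gave 1354 in TCKO against T. No filter gave 252 in TCKO against CKO and 100 in TCKO against WT. With each library left out they ran from 2934 to 5128 in T against WT (lowest without T replicate 2), 0 to 7 in CKO against WT, 1294 to 3278 in TCKO against T (lowest without T replicate 2, and 1467 without TCKO replicate 5), 11 to 266 in TCKO against CKO, 6 to 67 in TCKO against WT and 298 to 1266 in the interaction. The members called ran from 0 to 1 in TCKO against WT and from 2 to 4 in the interaction. The cause was not tested. Depth limits Socs1 and Stat4, which had at most 15 and 19 reads in a library.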
